A study of Mus musculus with 10 samples.

Results

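The centrosome and microtubule organizing genes followed here are the partners of ninein, a protein that anchors microtubules at the centrosome. They comprise 47 genes chosen by symbol (subunits of the gamma-tubulin and augmin complexes, ninein's relative Ninl, proteins of the centriole and of the matrix around it, and proteins that bind microtubule minus ends), with the ninein gene Nin itself left out. All 47 were found among the 29883 genes of the count table, and the rule that names them uses no measured value. Gene expression was measured by RNA-seq of polyadenylated RNA from the nucleus accumbens (NAc), a part of the ventral striatum, in 5 C57BL/6J (B6) and 5 DBA/2J (D2) mice, with 1 library per mouse. Both groups were untreated, ethanol-naive males of inbred strains, 9 weeks old per the study's methods, and were kept under the same conditions. The question was which of these genes differ in RNA level between the strains. The tissue was dissected whole, so that fewer cells of a type and less RNA per cell cannot be told apart, and the reads of both strains were aligned to a genome of the B6 strain.

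The centrosome is built from a pair of centrioles and a surrounding protein matrix, and it is the main site from which microtubules grow in dividing cells. Growth starts on a ring of gamma-tubulin and its partner proteins, and augmin places further rings along existing microtubules. In neurons most microtubules are not attached to the centrosome, and their minus ends are held by CAMSAP proteins, while augmin and gamma-tubulin act along the axon and dendrites.

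Depth lay between 96977262 and 111468080 counts per library in B6 and between 104443243 and 116776714 in D2, and no member had fewer than 47 counts in any library. Markers of striatal projection neurons were abundant in every library, with summed levels of 549321 to 691517 normalized counts (counts scaled to the mean library size after TMM normalization) in B6 and 448783 to 543925 in D2, and 7 of the 10 were lower in D2. B6 mice 3 and 5 stood apart. Their summed levels of 6 cortical projection neuron markers were 100364 and 101644 normalized counts, against 8009 to 17181 in the other 3 B6 mice and 23026 to 62536 in the D2 mice. The same 2 mice also had the highest sums of 7 oligodendrocyte markers (687604 and 683923, against 360132 to 572508 in the other mice), of which 4 were lower in D2. D2 mice 2 and 4 had the highest sums of 8 ependymal markers (3191 and 3320.2, against 1195 to 2294 in the other 8 mice; 1 marker higher in D2, 0 lower) and of 5 markers of dividing cells (1593 and 1213, against 507.3 to 1088). No marker of these 5 lists was at or under the level that a count of 0 allows. Beyond the fits without mice 3 and 5 of B6, without mice 2 and 4 of D2 or with the cortical marker level as a covariate, the part of these markers in the results below was not tested.

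Of the 47 members, 15 (31.9%) differed between the strains by edgeR's quasi-likelihood test with a Benjamini-Hochberg adjusted p under 0.05, 7 of them higher and 8 lower in D2. Among all 29883 genes 18.3% passed the same threshold, 8.50% higher and 9.83% lower in D2 (53.6% of the called genes were lower, and 45% when scaled by total counts), and among the 15388 genes with a mean of at least 100 normalized counts 23.8% passed it. The members' share was not tested against these. Their median absolute log2 difference, 0.10, was equal to that of the genes with at least 100 normalized counts. The normalized counts of the 5 B6 and 5 D2 mice did not overlap for 11 members (23.4%), against 16% of all genes, and 10 of these 11 were among the called. At an unadjusted p under 0.05 there were 25 members, beside 8778 of all 29883 genes. DESeq2 called 7 members higher and 9 lower, beside 2943 and 3265 of all genes.

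By functional group, the gamma-tubulin complex had 6 called members of 10 and augmin 5 of 8, against 4 of the other 29. Over all genes 18.3% passed, and over those with a mean of at least 100 normalized counts 23.8%. Among the calls in these 2 complexes, those of Tubgcp3, Tubgcp6 and Haus4 were lost in 7, 10 and 12 of 20 alternative fits. Both complexes held members that moved in opposite directions, 4 higher and 2 lower in D2 in the first and 2 higher and 3 lower in the second. The groups were set by function and this contrast between them was not tested. The calls lower in D2 were steadier than the higher ones. With any 1 library left out, 8 or 9 members were called lower, but the number called higher ran from 3 (without B6 mouse 3, D2 mouse 1 or D2 mouse 4) through 4 (without B6 mouse 4, B6 mouse 5, D2 mouse 3 or D2 mouse 5) to 8 (without B6 mouse 1). Without both B6 mice 3 and 5, 4 members were higher and 9 lower, and without both D2 mice 2 and 4, 4 were higher and 8 lower. With the cortical marker level as a covariate, 9 were higher and 9 lower. The number of all genes called in these fits was 5745, 3898 and 7834, in that order, against 5478 in the main fit.

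**Figure D1:**
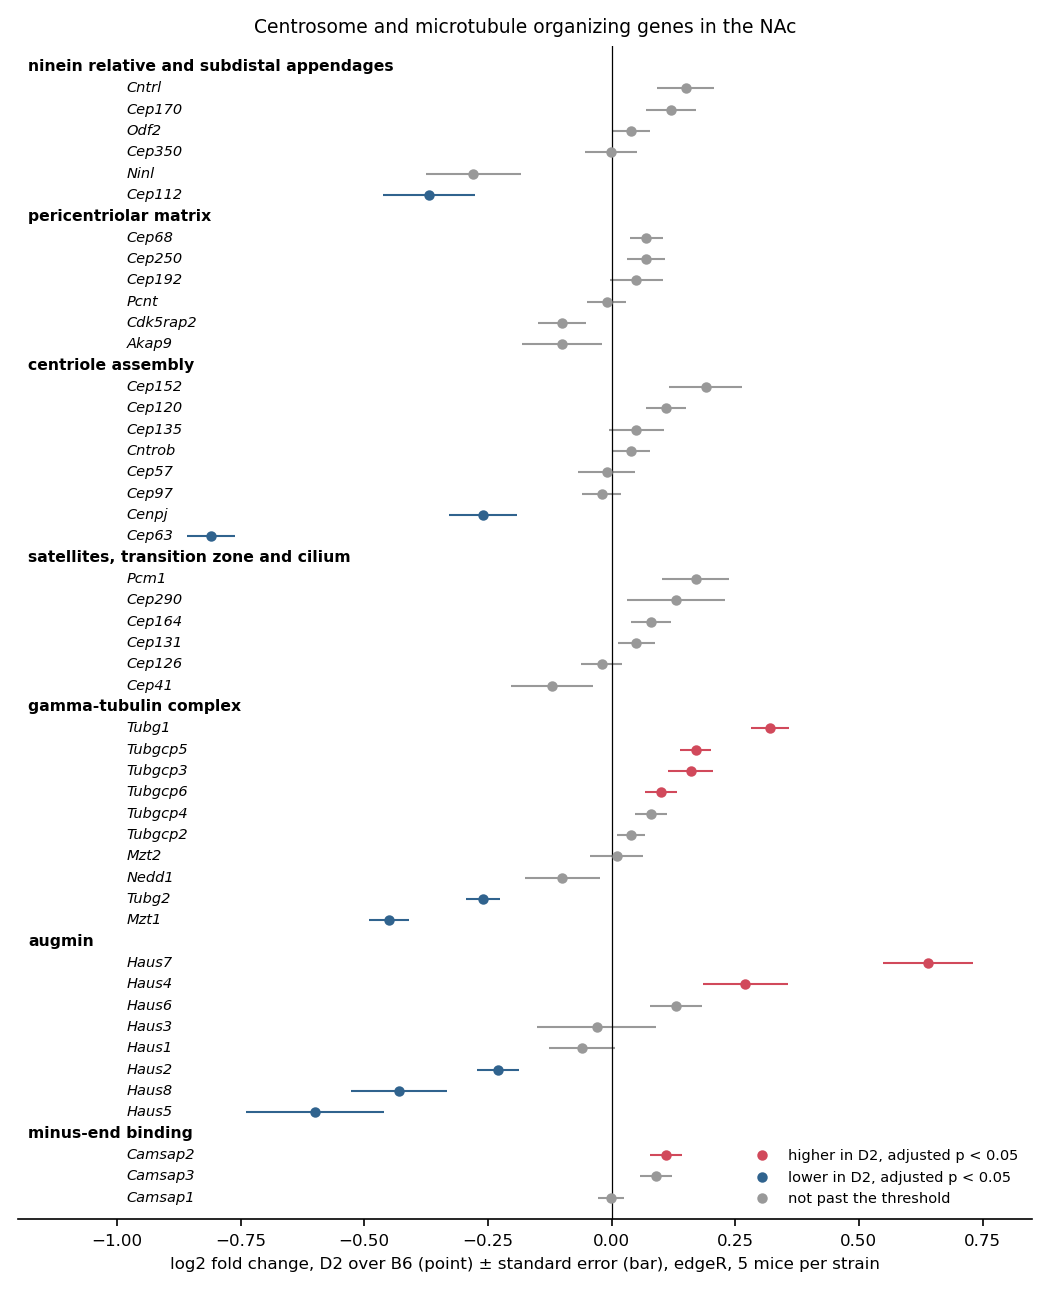
Log2 difference in RNA level, D2 minus B6, on the horizontal axis for each of the 47 members, grouped by function, with bars of 1 standard error from edgeR (5 mice per strain) and coloured points for an adjusted p under 0.05. Cep63 lies farthest to the left at −0.81 and Haus7 farthest to the right at 0.64. The pericentriolar matrix and satellite groups, of 6 genes each, hold no coloured point.

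Within the gamma-tubulin complex, the genes of the 2 gamma-tubulins moved in opposite directions. Tubg1 (ENSMUSG00000035198, chr11:101010744-101017251) and Tubg2 (ENSMUSG00000045007, chr11:101046641-101052616) lie on the plus strand of GRCm39, 29389 bases apart, and encode near-identical proteins, of which the product of Tubg1 is the widely expressed form and that of Tubg2 is enriched in brain. Their coding sequences are each 1356 bases long, stop codon included, and differ at 91 bases (93.3% identical), and 15 of 451 codons encode another residue. The stretches in which they are most and least alike are shown because reads can be assigned to 1 of the 2 genes only where they differ. In the most alike stretch, bases 640 to 759 of the coding sequence (Tubg1 at chr11:101015092-101015314 and Tubg2 at chr11:101050916-101051138, each across an intron), the sequences from the GENCODE M39 transcripts are identical:
Tubg1 and Tubg2: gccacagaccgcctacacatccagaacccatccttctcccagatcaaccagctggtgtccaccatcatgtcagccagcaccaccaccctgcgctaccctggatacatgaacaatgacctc
In the least alike stretch, bases 1162 to 1281 (Tubg1 at chr11:101016861-101016980 and Tubg2 at chr11:101052234-101052353, plus strand), 23 bases differ and are shown in capitals:
Tubg1: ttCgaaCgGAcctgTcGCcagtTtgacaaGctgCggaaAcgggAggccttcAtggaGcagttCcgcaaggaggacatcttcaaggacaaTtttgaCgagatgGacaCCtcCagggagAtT
Tubg2: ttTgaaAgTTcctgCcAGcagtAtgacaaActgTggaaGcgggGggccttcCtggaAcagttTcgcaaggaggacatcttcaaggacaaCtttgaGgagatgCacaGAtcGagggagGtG
Of the 1207 stretches of 150 bases, the read length, 15 are identical in both coding sequences. How reads that align to both genes were counted is not stated, so the level of each carries that uncertainty.

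The normalized counts of Tubg1 were 3258, 3144, 3277, 3103 and 3435 in the 5 B6 mice and 4033, 3827, 4115, 4028 and 4178 in the 5 D2 mice. The lowest D2 mouse lay above the highest B6 mouse, with means of 3243 ± 130.1 and 4036 ± 132.4 (SD, n = 5 each), a log2 difference of 0.32 (SE 0.038, edgeR adjusted p = 6.7e-05). Those of Tubg2 were 4449, 4641, 4588, 4487 and 4703 in B6 and 3671, 3775, 3869.6, 4025 and 3744 in D2. Here every D2 mouse was below every B6 mouse, with means of 4574 ± 105.5 and 3817 ± 136.5 and a log2 difference of -0.26 (SE 0.034, edgeR adjusted p = 0.00013). Both calls held with each library left out in turn, with log2 differences between 0.30 and 0.33 for Tubg1 and between -0.28 and -0.25 for Tubg2.

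The share of Tubg2 in the sum of both genes, each as counts per kb of exons, does not depend on the scaling between libraries. It was 63.0, 64.8, 63.6, 64.4 and 63.1% in the B6 mice and 53.2, 55.2, 54.0, 55.5 and 52.8% in the D2 mice. All D2 values lay below all B6 values, and the share fell from 63.8% ± 0.790 to 54.2% ± 1.19 (SD, n = 5 each), a difference of −9.64 percentage points. A two-sided exact permutation test gave p = 0.0079, which is the smallest value possible for 5 against 5 mice, and 0.0099 after Benjamini-Hochberg adjustment over the 5 shares tested. Which gene gives the larger part in D2 depends on the length used. Divided by the length of the canonical transcript, the share of Tubg2 averaged 58.9% ± 0.829 in the B6 mice against 49.0% ± 1.2 in the D2 mice (SD, n = 5 each) and was over 50% in 2 of the 5 D2 mice. In plain counts it was 58.5% ± 0.831 and 48.6% ± 1.2, and was over 50% in 0 of the 5 D2 mice and in all 5 B6 mice. Tubg2 shares no exon base with another annotated gene. Tubg1 shares 362 of its 2666 exon bases with Retreg3 on the opposite strand, which differed by 0.01 on the log2 scale (edgeR adjusted p = 0.837).

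**Figure D2:**
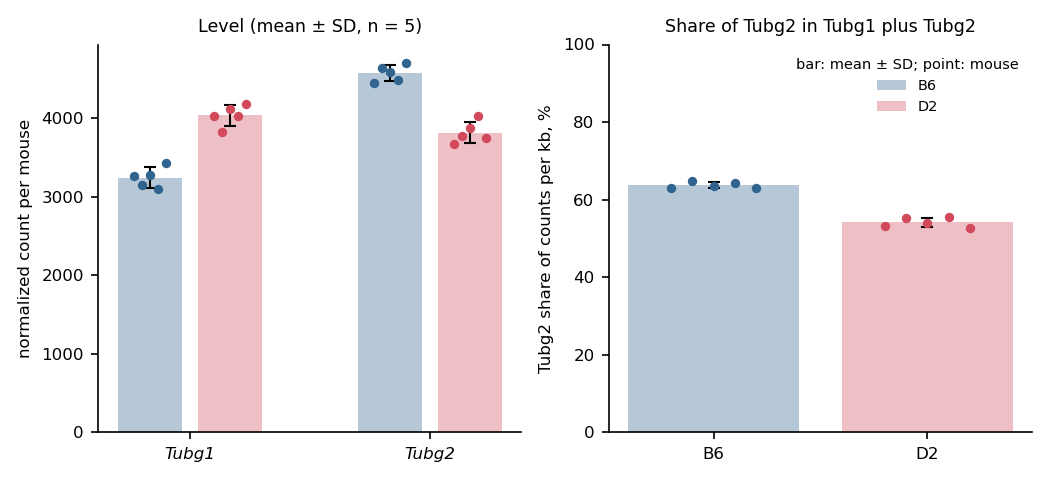
Left, normalized counts of Tubg1 and Tubg2 in each mouse (points), with bars from 0 for the mean and error bars for the SD of 5 mice per strain. Right, the percentage of Tubg2 in Tubg1 plus Tubg2 counts per kb of exons, with the B6 mice at 63.0 to 64.8% and the D2 mice at 52.8 to 55.5%.

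Mzt1 (ENSMUSG00000033186, chr14:99271488-99283740, minus strand of GRCm39) encodes a very small subunit of the gamma-tubulin ring complex and had the largest difference in this group. Its normalized counts were 8546, 8210.1, 8406, 8195 and 7623 in B6 and 6251, 5629, 5949, 6173 and 5906 in D2. The strains did not overlap, and the mean went from 8196 ± 351.7 to 5982 ± 245.0 (SD, n = 5 each), a log2 difference of -0.45 (SE 0.04, edgeR adjusted p = 3.4e-06). Mzt2, the gene of another small subunit of the ring, had 1154, 1235, 1254, 1185 and 1365 normalized counts in B6 and 1283, 1269.8, 1243, 1245 and 1187 in D2. The mice of the strains overlapped, and the log2 difference was 0.01 (SE 0.053, edgeR adjusted p = 0.950). Mzt1 shares 114 exon bases with Bora, which starts in the other direction nearby and had a log2 difference of −0.14 (edgeR adjusted p = 0.336).

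The gamma-tubulin complex proteins (GCPs), encoded by Tubgcp2 to Tubgcp6, hold gamma-tubulin in the ring, GCP2 and GCP3 as its repeating unit. All 5 genes had positive differences and 3 passed the threshold. Tubgcp5 had 4397, 4126, 4373, 4186 and 4204 normalized counts in B6 and 4798, 4701, 4911, 4804 and 4673 in D2. The strains did not overlap, and the log2 difference of 0.17 (SE 0.031, edgeR adjusted p = 0.002) held with each library left out. For Tubgcp3 the values were 6548, 6153, 5569, 6135 and 5645 in B6 and 6856, 6716, 6473, 6936 and 6543 in D2, and for Tubgcp6 they were 5397, 5428, 5486, 5249.5 and 5667 and 5997, 5625, 5929, 5792 and 5832. Both genes overlapped between the strains, with log2 differences of 0.16 (SE 0.045, edgeR adjusted p = 0.029) and 0.10 (SE 0.032, edgeR adjusted p = 0.045). The call of Tubgcp3 was lost without B6 mouse 3 or 5 or D2 mouse 1, 2 or 4, with log2 differences of 0.13 to 0.19 over the 10 fits that leave out 1 library. That of Tubgcp6 held in the fit without B6 mouse 5 or D2 mouse 2, with 0.09 to 0.11. Without both B6 mice 3 and 5, Tubgcp3 had a log2 difference of 0.09 and an edgeR adjusted p of 0.125. Tubgcp2 (log2 difference 0.04, edgeR adjusted p = 0.418), Tubgcp4 (0.08, 0.109, although its mice did not overlap) and Nedd1, which targets the ring to the centrosome (-0.10, 0.416), did not pass.

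Augmin is a complex of 8 subunits, Haus1 to Haus8, that binds to the side of a microtubule and recruits the gamma-tubulin ring there. Its 8 genes lie on 8 different chromosomes, and their differences ran from −0.60 for Haus5 to 0.64 for Haus7. Haus7 (ENSMUSG00000031371, chrX:72479655-72502654, minus strand of GRCm39) had 537.4, 541.9, 374.8, 488.6 and 487.6 normalized counts in B6 and 742.2, 787.3, 771.8, 731.3 and 762.8 in D2. All D2 mice lay above all B6 mice, with means of 486.1 ± 67.4 and 759.1 ± 22.5 (SD, n = 5 each; SE of the log2 difference 0.091, edgeR adjusted p = 0.00023). Its exons are shared with no other gene. Haus4, the other subunit higher in D2, had 268.2, 320.6, 262.5, 242.7 and 272.6 in B6 and 312.9, 313.5, 335.4, 356.3 and 335.5 in D2. Its strains overlapped, and its call (log2 difference 0.27, SE 0.086, edgeR adjusted p = 0.044) held without B6 mouse 2 and was lost without any other library, with log2 differences of 0.23 to 0.34.

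Of the 3 subunits lower in D2, Haus2 was the most abundant per kb of exons and had 2301, 2542, 2517, 2291 and 2371 normalized counts in B6 and 1996, 1984, 2084, 2089.7 and 2063 in D2. The strains did not overlap (log2 difference -0.23, SE 0.043, edgeR adjusted p = 0.002). Haus8, whose product contacts the microtubule, had 725.6, 737.3, 557.1, 592.3 and 635.7 in B6 and 566.1, 480.6, 430.8, 462.5 and 473.2 in D2. Its ranges overlapped, while the log2 difference of -0.43 (SE 0.097, edgeR adjusted p = 0.007) kept its call with each library left out in turn but not without both D2 mice 2 and 4 (-0.41, edgeR adjusted p = 0.057). Haus5 was the least abundant member per kb of exons, with 116.8, 88.9, 96.3, 89.8 and 102.9 in B6 and 63.3, 73.3, 67.1, 75.2 and 47.9 in D2. The strains did not overlap (log2 difference -0.60, SE 0.14, edgeR adjusted p = 0.011), but 1952 of its 3460 exon bases are also annotated to Gm21982 on the same strand, and how reads in such bases were assigned is not stated, so its level is uncertain. Haus1, Haus3 and Haus6 had log2 differences of -0.06, -0.03 and 0.13 and edgeR adjusted p-values of 0.658, 0.900 and 0.114.

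**Figure D3:**
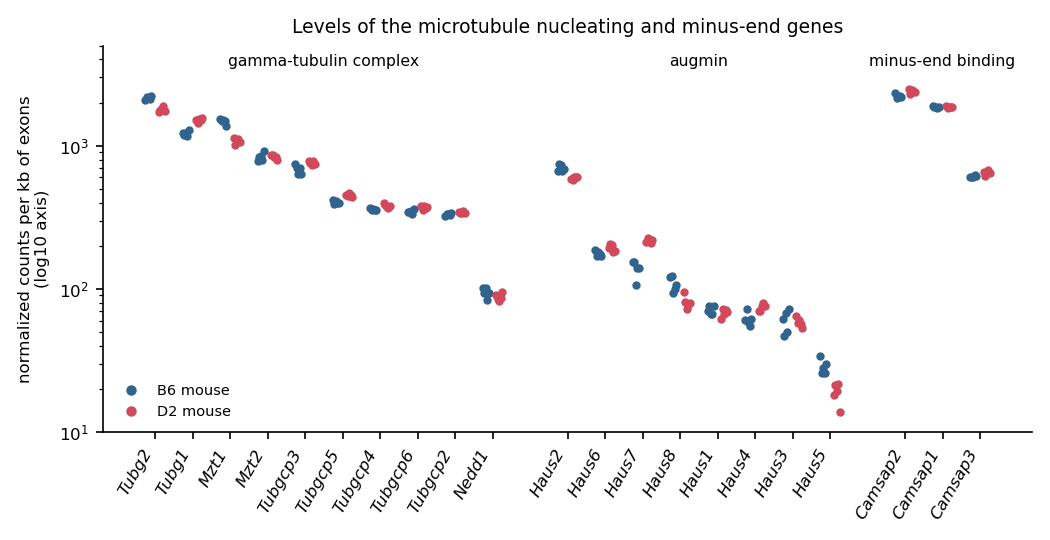
Normalized counts per kb of exons (logarithmic axis) of the genes of the gamma-tubulin complex, augmin and the CAMSAP family in each of the 5 B6 and 5 D2 mice, ordered by level within each group. Levels within augmin run from 23.7 for Haus5 to 647.2 for Haus2, and those of the CAMSAP genes from 630.5 for Camsap3 to 2312 for Camsap2.

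The 3 CAMSAP proteins bind and stabilize free minus ends and, in neurons, hold the microtubules that are not attached to the centrosome. Camsap2 had 22202, 20605, 21434, 21388 and 20879.8 normalized counts in B6 and 23742, 22003, 23557, 23162 and 22816 in D2. The ranges overlapped and the log2 difference was 0.11 (SE 0.033, edgeR adjusted p = 0.031). This call held without B6 mouse 1 or D2 mouse 2 but was lost without any of the other 8 libraries, at log2 differences of 0.10 to 0.13, and it was lost without both B6 mice 3 and 5 (0.11, edgeR adjusted p = 0.075). Camsap1 had 16014, 15838, 15863, 15609.6 and 15807 in B6 and 15957, 15611, 15818, 15847 and 15873 in D2. It varied least within each strain of all members, with coefficients of variation of 0.917% in B6 and 0.813% in D2 against member medians of 5.02% and 4.54%, and its log2 difference was -0.0005 (SE 0.026, edgeR adjusted p = 0.993). Camsap3 had 3721, 3715, 3721, 3806 and 3792 in B6 and 4004, 3777, 4041, 4157 and 3957 in D2. Its log2 difference was 0.09 (SE 0.033, edgeR adjusted p = 0.089).

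Read as shares of the 3 genes per kb of exons, Camsap1 made up 39.2, 40.4, 39.6, 39.2 and 40.0% of the sum in the B6 mice and 37.5, 38.7, 37.4, 37.6 and 38.2% in the D2 mice. Camsap2 made up 48.2, 46.5, 47.5, 47.6 and 46.8% in B6 and 49.5, 48.3, 49.4, 48.7 and 48.6% in D2. In both cases the strains did not overlap, but the shifts were small, −1.79 percentage points for Camsap1 and 1.6 for Camsap2 (two-sided exact permutation tests, adjusted p = 0.0099 each, n = 5 per strain). Because the shares of the 3 genes depend on each other, these shifts are not separate results. The log2 difference of Camsap1 itself was -0.0005 (edgeR adjusted p = 0.993). The share of Camsap3 ran from 12.6 to 13.3% in the B6 mice and reached up to 13.7% in the D2 mice, and its mean differed by 0.194 percentage points (exact permutation p = 0.33).

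Among the 8 genes of centriole assembly, the largest difference of all members was found. Cep63 (ENSMUSG00000032534, chr9:102461787-102503733, minus strand of GRCm39) encodes a protein that works with the product of Cep152 to start centriole duplication. Its normalized counts were 7000.3, 6603, 6226, 6676 and 6035 in B6 and 3478, 3951, 3777, 3801 and 3536 in D2. The highest D2 mouse lay below the lowest B6 mouse, and the mean fell from 6508 ± 381.6 to 3709 ± 196.6 (SD, n = 5 each), a log2 difference of -0.81 (SE 0.049, edgeR adjusted p = 1.1e-07) that ran from -0.84 to -0.78 with each library left out. Anapc13, which starts 256 bases away on the opposite strand and shares 257 of the 10650 exon bases of Cep63, moved the other way. It had 1554 ± 90.9 normalized counts in B6 and 1909 ± 60.3 in D2 (SD, n = 5 each; log2 difference 0.30, SE 0.049, edgeR adjusted p = 0.00077), with no overlap between the strains. The sources used here do not give the strand setting of the counting.

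Cenpj, a centriole elongation factor that is named Cpap in the annotation, had 671.6, 651.5, 637.3, 645.8 and 639.8 normalized counts in B6 and 519.3, 593.9, 594.2, 496.3 and 502.7 in D2. The strains did not overlap (log2 difference -0.26, SE 0.069, edgeR adjusted p = 0.018). The other 6 genes of the group had log2 differences between -0.02 and 0.19 and did not pass. They include Cep152, the scaffold that pairs with Cep63 (644.9 ± 52.4 against 733.5 ± 53.1 normalized counts, SD, n = 5 each; log2 difference 0.19, edgeR adjusted p = 0.109), and Cep120, which acts with Cenpj in centriole elongation (0.11, 0.083).

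**Figure D4:**
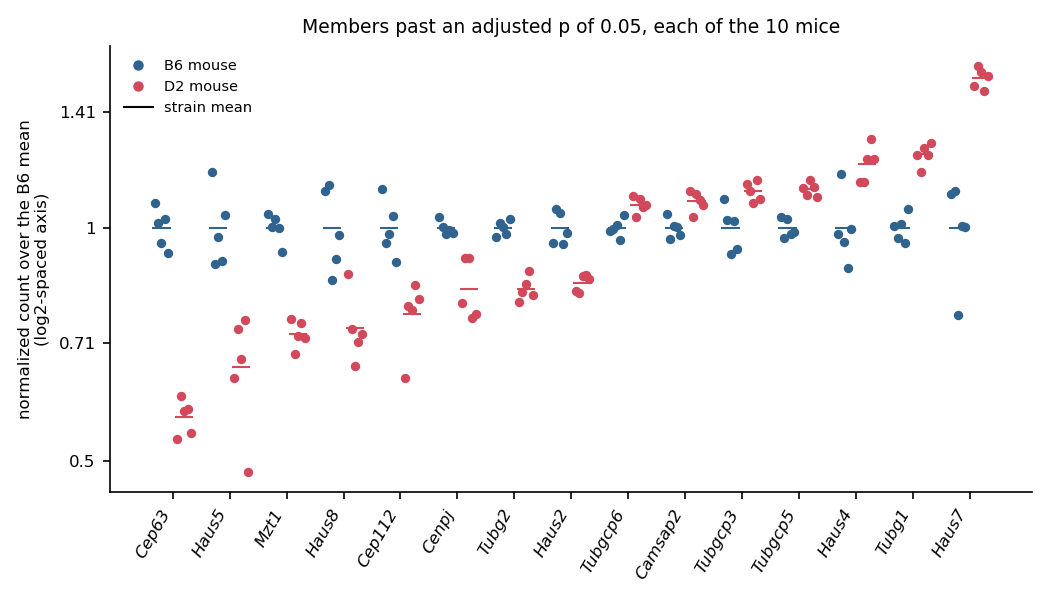
Normalized counts of the 15 called members in each of the 10 mice, as ratios to the mean of the B6 mice on a log2-spaced axis, with B6 and D2 mice in separate colours and short lines for the strain means. The points of the strains are separate for 10 genes, Cep63 and Haus7 among them, and overlap for Haus8, Haus4, Tubgcp3, Tubgcp6 and Camsap2.

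Of the 6 genes grouped here under ninein's relative and the subdistal appendages, the structures of the mother centriole that carry ninein, 1 passed. Over all genes 18.3% passed. Cep112, which encodes a coiled-coil centrosomal protein, had 398.5, 339.2, 348.4, 367.8 and 320.9 normalized counts in B6 and 227.5, 281.3, 277.7, 299.9 and 287.6 in D2. The strains did not overlap (log2 difference -0.37, SE 0.093, edgeR adjusted p = 0.014). Ninl, the ninein-like gene, had 913.8, 1104, 1189, 936.6 and 1196 in B6 and 782.6, 1019.7, 843.6, 921.2 and 818.8 in D2. Its mice overlapped and its log2 difference of -0.28 (SE 0.096) had an edgeR adjusted p of 0.061. DESeq2 gave an adjusted p of 0.027. B6 mice 2, 3 and 5 had the highest counts of Ninl, the last 2 being those with the most cortical and oligodendrocyte marker RNA. Without mice 3 and 5 the log2 difference was -0.17 (edgeR adjusted p = 0.264), and with the cortical marker level as a covariate it was -0.34 (0.004), while without D2 mice 2 and 4 it was -0.39 (edgeR adjusted p = 0.032).

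As a share of Nin plus Ninl counts per kb of exons, Ninl made up 15.5, 19.3, 19.2, 14.7 and 19.5% in the B6 mice and 11.9, 14, 12.2, 13.1 and 12.2% in the D2 mice. All D2 mice lay below all B6 mice, with means of 12.7% ± 0.853 and 17.7% ± 2.37 (SD, n = 5 each; two-sided exact permutation test, adjusted p = 0.0099). This share also moves with Nin, which was higher in D2 (log2 difference 0.27, SE 0.043, edgeR adjusted p = 0.00058). Without B6 mice 3 and 5 the difference in the share was −3.81 percentage points instead of −4.96.

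The appendage genes proper did not pass. Odf2, which is needed to build the appendages, had 13861, 13674, 14246, 14290.3 and 14028 normalized counts in B6 and 13631, 15268, 14659, 14823 and 13613 in D2. Those of Cntrl, the gene of centriolin, were 2542, 2264, 2336, 2374 and 2414 in B6 and 2629, 2872, 2448, 2847 and 2396 in D2. For Cep170 they were 12233, 10104, 10621, 10854 and 10697 and 12509, 11453, 11525, 12520.2 and 11316. The strains overlapped for all 3, with log2 differences of 0.04, 0.15 and 0.12 and edgeR adjusted p-values of 0.569, 0.108 and 0.132. Odf2 and Cntrl were the 2 members with their highest counts in D2 mice 2 and 4, those with the most ependymal marker RNA, and without both mice their log2 differences were -0.01 and 0.06 (edgeR adjusted p = 0.96 and 0.55). Cep350, with a log2 difference of -0.001 (0.991), was nearly equal.

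None of the 6 centrosome genes that were grouped here under the pericentriolar matrix passed the edgeR test, 1 had an unadjusted p under 0.05, and DESeq2 called 0. Over all genes 18.3% passed the edgeR test, and so small a group was not tested against that share. Pcnt, the gene of the scaffold pericentrin, had 4854, 4730.2, 5236, 4965 and 5307 normalized counts in B6 and 4955, 4993, 5271, 4841 and 4829 in D2. Akap9, a large scaffold that anchors the gamma-tubulin ring at the centrosome and Golgi, had 29258, 20605, 25403, 26746 and 25119.9 in B6 and 25675, 21846, 22155, 25583 and 23183 in D2. Cdk5rap2, whose product binds and activates the ring, had 3006, 2967, 2932, 2708 and 2894 in B6 and 2617, 2991, 2681, 2735 and 2539 in D2. The strains overlapped in each, with log2 differences of -0.01, -0.10 and -0.10 (SE 0.04, 0.081 and 0.049, edgeR adjusted p = 0.892, 0.465 and 0.211). Cep192, Cep68 and Cep250 had differences of 0.05, 0.07 and 0.07.

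Of the 6 genes of the centriolar satellites, the transition zone and the cilium, edgeR called 0, DESeq2 0, and 1 had an unadjusted p under 0.05. This was likewise not tested against the 18.3% of all genes that passed the edgeR test. Pcm1, the gene of the satellite scaffold, had 16038, 11944, 14018, 14407 and 14101 normalized counts in B6 and 16191, 15308, 15561, 17468 and 14776 in D2. The ranges overlapped, and the log2 difference of 0.17 (SE 0.068) had an edgeR adjusted p of 0.115. It passed in 1 of the 10 fits that leave out 1 library. The others, Cep131, Cep290, Cep164, Cep41 and Cep126, had differences from -0.12 for Cep41 to 0.13 for Cep290, and their adjusted p-values lay at 0.211 or above.

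Levels of different genes were compared per kb of exons only. Over all 10 mice the highest member was Camsap2 with 2312 normalized counts per kb and the lowest Haus5 with 23.7. In the gamma-tubulin complex the levels ran from 91.4 for Nedd1 to 1966 for Tubg2. The order depends on which length is used. Divided by the length of the canonical transcript, Odf2 was the highest with 4203 and Haus5 remained the lowest with 37.5.

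Related genes outside the 47 were read in the same fit. Of 46 other genes of the centriole and centrosome, 12 (26.1%) passed, 5 higher and 7 lower in D2. Over all genes the share was 18.3%, and over those with a mean of at least 100 normalized counts it was 23.8%. Neither this list nor the next was tested against these shares. The largest falls were those of Crocc, the gene of the rootlet protein rootletin (-1.91, edgeR adjusted p = 2.2e-11), and Poc1a, a centriole stability gene (-1.32, 9.7e-05), followed by Cep89 (-0.76), Sclt1 (-0.56) and Fbf1 (-0.29). The higher genes were Sfi1 (1.34), Cep162 (0.80), Ankrd26 (0.30), Cep43 (0.28) and Cep44 (0.24). Of the 11697 exon bases of Sfi1, 1381 are also annotated to other genes on the same strand and 1152 on the opposite strand. How reads in such bases were assigned is not stated. Poc1a was highest in B6 mice 3 and 5, with 1043 and 1089 normalized counts. The other B6 mice had 626.2 to 660.7 and the D2 mice 281.7 to 378.0. Its call was not lost in the fit without B6 mice 3 and 5. Beyond this, the part of the cortical and oligodendrocyte markers in the level of Poc1a was not tested. Of 24 genes that bind microtubule ends or sever microtubules, 7 (29.2%) passed, beside the same 18.3% and 23.8%. Among them, the severing gene Fign (0.36), the spindle pole gene Numa1 (0.32), Clasp1 (0.18) and the depolymerizing kinesin Kif2a (0.12) were higher in D2, while the katanin catalytic subunit Katna1 (-0.17) and the spastin gene Spast (-0.15) were lower. With 1 library left out, the calls of Numa1, Clasp1 and Spast held in all 10 fits. That of Fign was lost without B6 mouse 2, 3 or 5 or D2 mouse 1 or 5 (log2 differences of 0.29 to 0.42), that of Kif2a without B6 mouse 2, 3, 4 or 5 or D2 mouse 3 or 4 (0.10 to 0.14), and that of Katna1 held without B6 mouse 3 or D2 mouse 2 alone (-0.20 to -0.14) and was lost with scaling by total counts.

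The members lie on 15 chromosomes and none lies on chromosome 12, which carries Nin. Another protein-coding gene starts on the opposite strand within 1000 bases of 13 members. Of these 13, 6 are called (Cep63, Cenpj, Tubg1, Mzt1, Haus2 and Haus8). This count was not tested against the 31.9% of all members or the 18.3% of all genes that were called. Among the neighbours of these 6 members, Anapc13 differed between the strains by edgeR's adjusted p. The other 5 (Parp4, Retreg3, Bora, Lrrc57 and Myo9b) had log2 differences of −0.14 to 0.01 with edgeR adjusted p-values of 0.248 or above. For Camsap2, the overlapping antisense gene Gm26781 went from 51.2 ± 12.7 normalized counts in B6 to 126.6 ± 12.4 in D2 (SD, n = 5 each, edgeR adjusted p = 9.3e-05). The means of Camsap2 itself were 21302 in B6 and 23056 in D2. The part of Gm26781 reads in this difference was not tested. The genes that overlap Tubgcp3 and Tubgcp6 had adjusted p-values of 0.502 or above.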

How the data were processed

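NAc RNA of 10 male mice, 5 per strain, was sequenced with 1 library for each. The labels name 1 provider of the libraries and the study's methods another. The authors deposited whole-number read counts for each gene, not normalized. They trimmed reads with fastp, aligned them with STAR 2.7.10b to Ensembl GRCm39, used SAMtools 1.6 and counted with featureCounts (strand and multiple-alignment settings not given in the sources used here). Genes with a median of 0 are absent from the table, where the lowest median is 0.5.

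Here all 29883 genes were fitted with edgeR 4.0.16 in R 4.3.3 (TMM, quasi-likelihood F test, two-sided, Benjamini-Hochberg over all genes, threshold 0.05), without a further filter. Normalized counts are counts scaled to the mean TMM library size. Standard errors are the absolute log2 difference divided by the square root of F. Members were matched by symbol to GENCODE M39, 1 through an older name in RefSeq. Lengths are merged exons. Shares were compared by exact permutation tests. No pair of libraries agreed within sampling noise. The lowest mean chi-square within a strain, 4.89, was that of B6 mice 3 and 5. Against the other B6 mice these had 85.5 to 119, and every other pair within a strain lay at 17.5 or above. The fit was tested on simulated data. The text names with every mouse the called members and 15 set members, and up to 5 called genes per direction of each related list, except 1 gene that is not reported here. The members, lists and rules were chosen with earlier results of these data known. Alternatives were DESeq2 1.42.0, other scalings and filters, a replicate block, and leaving out libraries. The fits without B6 mice 3 and 5, without D2 mice 2 and 4 or with cortical markers as a covariate, and the canonical lengths, were added after seeing the data. No authors' comparison columns were in the table.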

Additional observations from a re-analysis of the deposited data

How the results depend on the processing

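Of the 15 called members, 9 (3 higher and 6 lower in D2) were called in all 20 alternative fits. Of the others, Cep112 was lost under the replicate block (edgeR adjusted p = 0.050) and Haus8 without D2 mice 2 and 4. Tubgcp3 and Camsap2 were lost with single libraries left out. Tubgcp6 and Haus4 were lost both with single libraries left out and under the block (edgeR adjusted p = 0.091 and 0.106). Without D2 mice 2 and 4, Tubgcp3, Tubgcp6 and Haus4 were lost too, and without B6 mice 3 and 5, Tubgcp3, Haus4 and Camsap2. No called difference changed direction under any of the 20 alternative fits. With 1 library left out, the number of members called higher ran from 3 to 8 and of those called lower from 8 to 9, and of all genes from 4636 to 5676 instead of 5478. Without B6 mice 3 and 5, 4 members were called higher, and without D2 mice 2 and 4, also 4. All genes called in these fits were 5745 and 3898. At an adjusted p under 0.01 there were 3 higher, 5 lower and 3415 genes in all. With at least a 1.2-fold change there were 3 higher, 5 lower and 4033 genes in all. Total counts gave 10 higher, 8 lower and 5480 genes in all. The labels do not say that replicate numbers pair the mice. The correlations of same-numbered deviations were 0.37, −0.42, 0.37, 0.03 and −0.29, and 2 of the 5 B6 mice correlated best with their own number. So few values cannot decide whether the numbers pair the mice. With the replicate block 6 members were called higher, 7 lower and 4731 genes in all, and the share differences stayed at −9.64 for Tubg2, −4.96 for Ninl, −1.79 for Camsap1 and 1.6 for Camsap2, where the smallest p that 5 pairs allow is 0.0625. With 1 library left out the shares differed by −9.99 to −9.31, −5.70 to −4.49, −1.99 to −1.62 and 1.40 to 1.81, and that of Camsap3 by 0.0816 to 0.257. Nothing here says whether a difference in RNA reaches the protein. Haus5, the member with the fewest counts, had the largest standard error of the members (0.14).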
